A study of Mus musculus with 24 samples.

Results

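Hearts of 4 Eya3-/- mice were compared with a pool of wild-type heart RNA on 8 of the 24 two-colour cDNA arrays of the series. The mice were homozygous for a gene trap in an intron of Eya3 that removes the exons after it, on a predominantly C57BL/6 background. All were males of 13 weeks, as were the pooled animals by their labels. Each mouse was hybridised on 2 arrays with the dyes exchanged, and every array carried heart RNA of the wild-type pool in the other channel. The mice are called W, X, Y and Z here. The pool counts as 1 control sample for all of them, so the spread between wild-type hearts is not measured and a deviation of the pool enters every mouse alike. The number of pooled animals differs between the labels and the methods, and the animal numbers listed for the pool run across those of W and X although both are labelled as mutants.

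Eya3 belongs to the eyes absent family of transcriptional co-activators with phosphatase activity, which act together with DNA-binding sine oculis homeobox proteins and with Dach proteins. These proteins are known for roles in skeletal muscle and organ development. In the adult heart, contraction rests on the sarcomere and on calcium cycling through the sarcoplasmic reticulum, and the ATP for both comes mainly from fatty acid oxidation and the mitochondrial respiratory chain.

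Values are deposited log2 ratios, likely mutant over pool, and a value of 0 means equal signal in both channels. The value of a mouse is the mean of its 2 arrays. Clones with both arrays measured in 3 or 4 mice were tested, which held for 16241 of 20794 clones. Of these, 10024 carried a gene symbol, which makes 7558 genes. The ratios hold no signal levels, so the tissue could not be checked by the level of its markers. The heart muscle clones of Actc1, Myl2, Tnni3, Tnnt2 and Mybpc3 had values in all 4 mice. So did those of the lung gene Sftpc, the keratin Krt5 and the olfactory receptor Olfr215, so having a value does not show the tissue.

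The single clone of Eya3 gave no check of the labelled genotype. In mouse W it had -2.13 with the mutant in Cy5 and 2.18 with the mutant in Cy3, and in mouse Y -1.05 and 0.30. In mice X and Z only the arrays with the mutant in Cy5 gave a value, 1.42 and 0.10. The 4 arrays with the mutant in Cy5 thus lay on both sides of 0, and the clone was not tested. Where the clone lies in the transcript relative to the trap was not known here.

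Of the wider network of Eya and its partners, 6 of 8 genes on the array were tested. Eya2, a paralogue of Eya3, had -0.25, -2.01, -0.69 and -1.72 in mice W to Z. All 4 mice lay below 0. The mean was -1.17 ± 0.83 (SD, n = 4 mice), and limma gave an adjusted p of 0.802. Ski, a co-repressor that binds Smad proteins, had 1.18 ± 2.38 (SD, n = 3 mice) on clone 3906 and 0.00 ± 0.25 (SD, n = 4 mice) on clone 19299. Pax2 had -0.04 ± 0.86 (SD, n = 4 mice). Pax6, a transcription factor upstream of Eya genes in eye development, had -0.60, -2.46 and -1.90 in mice W, X and Z, with a mean of -1.65 ± 0.95 (SD, n = 3 mice), the farthest from 0 of the 6 genes. At an unadjusted p under 0.05 limma had 0 genes of this list higher and 2 lower. Over all 7558 genes it had 192 higher and 197 lower.

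Genes beside the trap were looked at after other results were known. Of the 15 protein-coding genes on either side of Eya3 in the order of GRCm38.p6, 14 were tested. Their means ran from -0.59 for Atpif1 to 0.20 for Fgr, with a median of -0.02, and 7 of 14 lay above 0. Below 0 in all 4 mice were 3 of the 13 genes with 4 mice, which were Gmeb1 (-0.48), Rcc1 (-0.33) and Atpif1 (-0.59), beside 6.93% of all genes. Each had a mouse near 0, with -0.03 in mouse Z for Gmeb1 and -0.04 in mouse W for Rcc1. Atpif1 had -0.02, -1.825, -0.495 and -0.01 in mice W to Z. Xkr8, the gene next to Eya3, had 0.93, -0.78, -0.75 and 0.16 in mice W to Z.

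Single clones agreed little between arrays. Over the clones of a mouse with both arrays, 42.8% to 46.9% had the same sign on both, where the shares of positive values on each array alone would give 49.5% to 50.1%. The median difference between the arrays of a mouse was 0.69 to 1.01 on the log2 scale. Pearson's r across clones, which are not independent replicates, was -0.10 to -0.04 between the arrays of 1 mouse, 0.01 to 0.10 between mice on the same dye and 0.00 to 0.04 between the mouse means. The arrays of mouse Y had the most missing clones, 16.3% and 17.2% against 4.75% to 12.04% on the others, and the widest spread. The SD over mice had a median of 0.46 per clone, and the mean of a clone differed from 0 by a median of 0.22.

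Across all clones limma, which tests the mean of the mice against 0, called 0 of 16241 at an adjusted p under 0.10 (0%). An unadjusted p under 0.05 was reached by 848 clones (5.22%), 390 above and 458 below 0. Over genes with 4 mice, 585 of 5888 lay above 0 in every mouse (9.94%) and 408 below 0 in every mouse (6.93%). The mean lay above 0 in 53.7% of the 7558 genes, with a median of 0.03.

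Gstm2, a glutathione S-transferase of the mu class that conjugates glutathione to electrophiles, stood apart from all other clones. Its clone had -2.36, -2.43, -2.12 and -2.21 in mice W to Z. The 8 arrays lay between -2.53 and -2.05, and no other clone lay beyond 1 in size on one side of 0 on all 8 arrays. The mean of -2.28 ± 0.14 (SD, n = 4 mice) is a 4.85-fold lower ratio (adjusted p = 0.291 from limma). Gstm2 was called at an adjusted p of 0.0989 from limma over the 11299 clones without missing arrays and at 0.0913 with the clones of a gene averaged. Over all alternatives the adjusted p from limma ran from 0.000182 to 0.881, the highest without mouse Z. The lowest came from a fit on the 8 single arrays with the mouse as a random block. The 2 arrays of a mouse share its RNA, so fits on 8 arrays add no replicates. In brain the clone had a mean of -0.01 and in muscle -0.37, and the difference was -2.27 to brain (adjusted p = 0.394 from limma) and -1.91 to muscle (adjusted p = 0.163 from limma). Cross-hybridisation within the mu class cannot be judged from the ratios. The Gstm1 clone had -0.36, -0.43, -0.31 and -0.04 in mice W to Z.

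Few further clones kept their sign on every array. Of the 11299 clones with 8 values, 64 lay above 0 on all arrays (0.566%) and 70 lay below (0.62%). Beyond 0.5 in size on all 8 arrays were Gstm2 and clone 15203, which has no symbol and lay between 0.67 and 1.86. The next by the smallest value on any array were Mllt11 clone 13148, from -1.12 to -0.46, Hmgn2, from 0.41 to 1.38, Trim54 clone 3088, from -1.10 to -0.39, and clone 124, from 0.38 to 1.08. Apoe, the apolipoprotein of remnant lipoproteins, lay between 0.27 and 0.98, and Ifi27l2a, an interferon-induced gene, lay between 0.29 and 1.63. These clones were picked out after their values were seen.

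Hmgn2, a nucleosome-binding protein, had 0.90, 0.68, 0.79 and 0.83 in mice W to Z. The 4 mice lay close together, with a mean of 0.80 ± 0.09 (SD, n = 4 mice), a 1.74-fold higher ratio. Trim54, also called MURF3, a ubiquitin ligase bound to microtubules and the sarcomere, had -0.48, -0.72, -0.84 and -0.80 in mice W to Z, with a mean of -0.71 ± 0.16 (SD, n = 4 mice). A further clone of Trim54 had values in 2 mice only, -0.76 in X and -0.31 in Y. The adjusted p from limma was 0.802 for both genes.

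Several of the other clones with the 15 lowest p-values differed more between the dyes. Ppm1f clone 9344, a protein phosphatase, had 1.08, 1.01, 1.08 and 0.63 in mice W to Z, but -1.54 and 3.69 on the arrays of mouse Y. Tssc4 had -1.65, -1.08, -0.68 and -1.29, with 0.99 and -4.30 on the arrays of mouse W. 2310002L09Rik had a mean of -1.19, of which the arrays with the mutant in Cy5 gave -0.43 and those with the mutant in Cy3 -1.96. Fndc4 (-0.9992), Sltm (-0.84), Col2a1 (-0.90) and Coro1c (-0.72) lay below 0 in all 4 mice, and Hnrnpll clone 9361 (0.93), Pecr (0.88), Ephb1 (1.11) and Ap2a2 clone 6660 (1.34) lay above 0 in all 4 mice.

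Where these genes had a further clone, it seldom repeated the value. The other tested clones gave 0.14 for Fndc4, 0.48 for Col2a1, 0.05 for Coro1c and 0.05 for Mllt11, with mice on both sides of 0 in each. Ap2a2 clones 11144 and 13061 had -0.36 and -0.34, opposite to clone 6660. Ppm1f clone 14741 had -0.61 ± 0.21 (SD, n = 3 mice), opposite to clone 9344. Hnrnpll clone 1963 had 0.46 ± 0.76 (SD, n = 4 mice), on the same side but with mouse Y at -0.04.

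**Figure D1:**
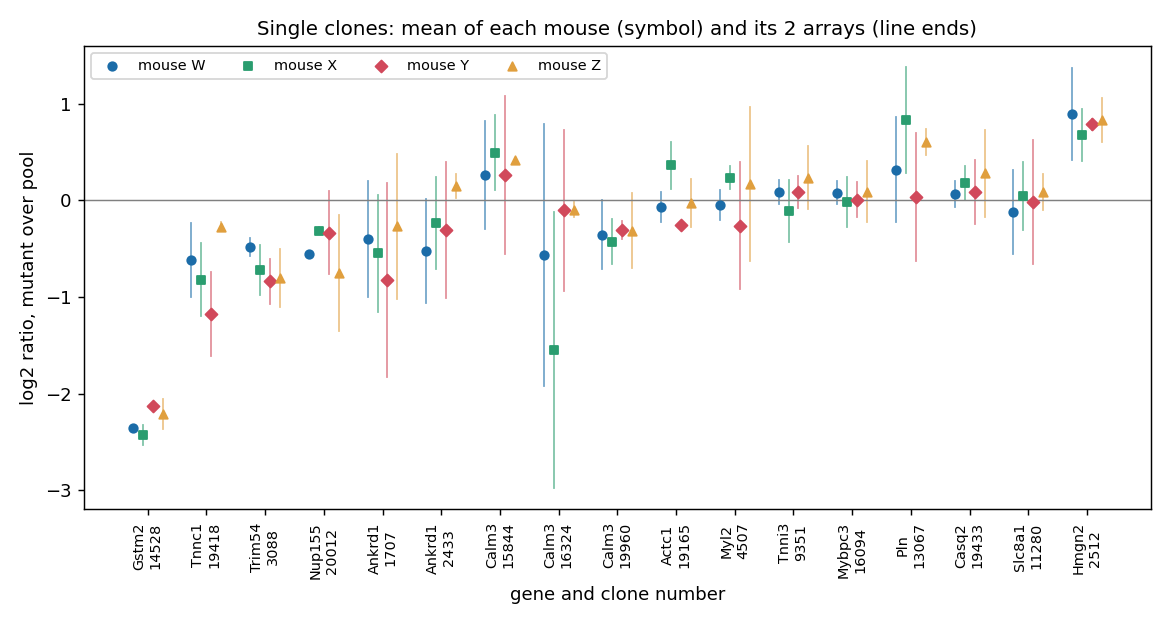
Log2 ratio (mutant over pool, y axis) of single clones in the heart. Symbols are the 4 mice, and the ends of each line are the 2 dye-swapped arrays of that mouse. Gstm2 lies between -2.53 and -2.05 on all 8 arrays, and the lines of Calm3 clone 15844 and of Ankrd1 clone 1707 span several times the distance between most mice.

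Tnnc1, Calm3, Ankrd1 and Nup155 were followed because the study names them among the genes lower in the mutant heart. It called them by SAM on these arrays, and for Nup155 it also reports a lower level by real-time PCR on the same RNA. Tnnc1 encodes cardiac troponin C, the calcium sensor of the thin filament. It had -0.62, -0.82, -1.18 and -0.27 in mice W to Z, and all 8 arrays lay below 0, between -1.61 and -0.23. On the arrays with the mutant in Cy5 the mean was -1.01, and with the mutant in Cy3 it was -0.43. The mean of -0.72 ± 0.38 (SD, n = 4 mice) is a 1.65-fold lower ratio, with an adjusted p of 0.802 from limma.

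Ankrd1, a transcriptional co-factor and titin-associated protein that rises with cardiac stress, had 2 clones. Clone 1707 had -0.40, -0.55, -0.82 and -0.27 in mice W to Z, and clone 2433 had -0.52, -0.23, -0.30 and 0.15. Clone 1707 had a mean of 0.23 with the mutant in Cy5 and -1.25 with the mutant in Cy3, and clone 2433 had -0.69 and 0.23, so the dyes disagreed in opposite directions for the clones of one gene.

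Calm3, one of the genes that encode calmodulin, the calcium sensor of many kinases and channels, had 3 clones that did not share a direction. Clone 15844 had 0.26, 0.49, 0.27 and 0.42 in mice W to Z. Clone 19960 had -0.35, -0.42, -0.30 and -0.31 (SD 0.06), and clone 16324 had -0.57, -1.55, -0.10 and -0.10. Each clone thus lay on one side of 0 in all 4 mice, 1 above and 2 below. With the mutant in Cy5 alone, however, the mean of clone 15844 lay below 0. The clones of Calm2, which encodes the same protein, had 0.10 and 0.01.

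Nup155, a scaffold nucleoporin, had -0.56, -0.31, -0.33 and -0.75 in mice W to Z. Of its 8 arrays, 1 lay above 0, at 0.10 in mouse Y. For a single clone such as this, an exact two-sided sign-flip test over 4 mice cannot go below p = 0.125. Among 35 tested genes of the nuclear pore and of nuclear transport, 18 lay above and 17 below 0, with a median of 0.01. Below 0 in all mice were 4 of 30 genes with 4 mice (13.3%, against 6.93% of all genes). Above 0 in all mice were 2 of 30 (6.67%, against 9.94% of all genes). Nup62, a central channel nucleoporin, had 1.03 ± 0.76 (SD, n = 4 mice), with 0.30, 0.67, 2.06 and 1.10 in mice W to Z, and Tnpo3, an import receptor of splicing factors, had 1.23 ± 1.38 (SD, n = 4 mice).

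Gene classes were described by the mean of the tested clones of each gene, by counts on each side of 0 and by the median, beside the same over all genes. The lists overlap in few genes, and the genes of a list share arrays and are not independent.

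The genes of the respiratory chain and the ATP synthase, which pass electrons to oxygen and make ATP, lay above 0 as a class, with 61 of 70 genes (87.1%) and a median of 0.14 against 53.7% and 0.03 over all genes. The class median was 0.24 in mouse W, 0.29 in mouse X and 0.24 in mouse Z, but -0.15 in mouse Y. In mouse Y 13 genes lay above 0, against 56 in mouse W, 64 in mouse X and 59 in mouse Z. As a result, 41 of 68 genes with 4 mice (60.3%) lay above 0 in W, X and Z and below 0 in Y, a pattern shown by 10.6% of all genes. Above 0 in all 4 mice were 7 of 68, close to the 9.94% of all genes.

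The class median had the same sign on both arrays of each mouse, but single genes often did not. In mouse Y 22 of 69 genes (31.9%) had the same sign on both arrays, against 43.0% of all genes. In mice W, X and Z it was 64.3%, 61.4% and 55.1%, against 44.5%, 45.1% and 48.0% of all genes. In mouse W the median was 0.26 with the mutant in Cy5 and 0.21 with the mutant in Cy3, and in mouse X 0.30 and 0.27. In mouse Y it was -0.15 on both arrays, with 28 genes above 0 on each. In mouse Z it was 0.42 with the mutant in Cy5 and 0.05 with the mutant in Cy3, where all genes had 0.06 and 0.06. The median of all genes changed sign with the dye in mice W, X and Y. It was 0.09 and -0.10 in mouse W, 0.11 and -0.07 in mouse X and -0.09 and 0.04 in mouse Y, Cy5 first.

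**Figure D2:**
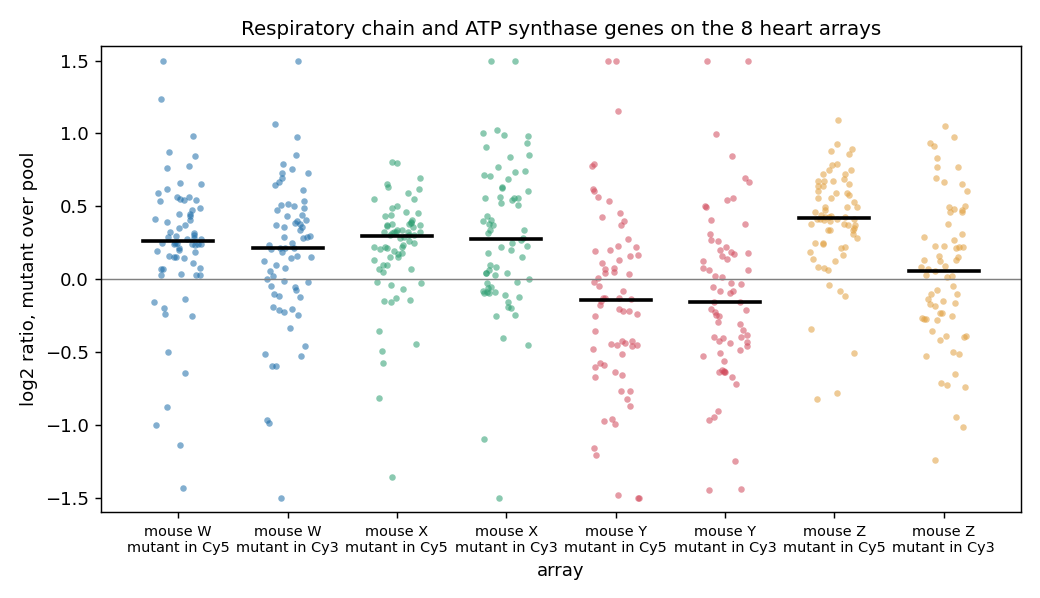
Log2 ratio (mutant over pool, y axis) of the 70 respiratory chain and ATP synthase genes on each of the 8 heart arrays (x axis). Points are genes, black lines are medians, and 11 of 558 values beyond 1.5 are drawn at 1.5 or -1.5. Both arrays of mouse Y have a median of -0.15, and the other 6 arrays have medians from 0.05 to 0.42.

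In each complex of the chain mouse Y was the lowest and below 0. Complex I, the NADH dehydrogenase, had medians of 0.24, 0.23, -0.15 and 0.18 in mice W to Z (23 of 28 genes above 0), and complex IV, cytochrome c oxidase, had 0.20, 0.22, -0.17 and 0.26 (14 of 15). The median of complex IV was 0.25 with the mutant in Cy5 and 0.0093 with the mutant in Cy3. Complex III had 0.19, 0.33, -0.09 and 0.21 (8 of 8), and the ATP synthase had 0.32, 0.36, -0.16 and 0.27 (13 of 15). Complex II, with 4 genes, had 0.09, 0.25, -0.10 and 0.31.

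Of the 5 genes given next, all had mouse Y as the lowest mouse, but 4 of them lay on both sides of 0 on its arrays. Cox6c, a subunit of complex IV, had 0.52, 0.61, -0.54 and 0.59 in mice W to Z, where the arrays of mouse Y gave -1.48 with the mutant in Cy5 and 0.41 with the mutant in Cy3. Atp5md, a small subunit of the ATP synthase, had 0.86, 0.89, -0.51 and 0.40, with -0.48 and -0.53 on the arrays of mouse Y. Uqcrc2, a core subunit of complex III, had 0.26, 0.58, -0.16 and 0.64, and its arrays of mouse Y gave -0.995 and 0.67, Cy5 first. Uqcrh, the hinge protein of complex III, had 0.54, 0.35, -0.30 and 0.20, with 0.11 and -0.72 on the arrays of mouse Y. Sdha, the flavoprotein of complex II, had 0.62, 0.55, -0.08 and 0.28, with -0.42 and 0.26. Clones of one gene differed by mouse, as for Cox7b with 0.63, 0.18, -0.15 and 0.16 on clone 15930 and 0.30, 0.72, -0.04 and 0.38 on clone 16331. Cox7a1 had 0.20, 0.59, -0.16 and 0.40 on clone 6813 but -0.58, 1.30 and 0.75 in mice X, Y and Z on clone 1302. Atp5j (coupling factor 6), with 0.48, 0.68, 0.20 and 0.36, was above 0 in mouse Y as well. Genes with the largest means owed them to 1 mouse, such as Ndufc1 with 3.02 in mouse W and Ndufaf7 with 2.01 in mouse Y.

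In the other organs of the same animals mouse Y was not the lowest. In muscle the class median was 0.14 in mouse Y and -0.03, 0.13 and -0.04 in mice W, X and Z, and in brain it was -0.15 in mouse Y and -0.17, -0.22 and -0.38 in the others. The part of RNA quality, hybridisation or dissection in the value of mouse Y was not tested.

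Pyruvate oxidation and the citric acid cycle had 25 of 30 genes above 0, a median of 0.16 and class medians of 0.20, 0.22, -0.07 and 0.29 in mice W to Z. Of its core enzymes, Mdh2 (malate dehydrogenase) had 0.21, 0.24, -0.22 and 0.39 and Sucla2 (succinyl-CoA ligase) had 0.29, 0.42, -0.33 and 0.37. Idh3a (isocitrate dehydrogenase) and Ogdh (oxoglutarate dehydrogenase) had 0.22 ± 0.21 and -0.03 ± 0.13 (SD, n = 4 mice). Citrate synthase (Cs) had 0.03 on clone 4310 and 0.62 on clone 7493.

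Fatty acid oxidation had 23 of 31 genes above 0 with a median of 0.11. Acadl, which starts the oxidation of long chains, had 0.15 ± 0.20 (SD, n = 4 mice), and Hadha, the alpha subunit of the trifunctional protein, had 0.14 ± 0.44 (SD, n = 4 mice). Acadm, the medium-chain enzyme, had 0.07 ± 0.15 (SD, n = 4 mice) on clone 19090 and -0.61 on clone 1918, which had -2.22 in mouse Y. The tested clones of Ppara, the nuclear receptor that drives this pathway, had means of 0.01, -0.16, -0.16 and -0.49. Glycolysis and glucose uptake were evenly split, with 13 of 25 genes above 0 and a median of 0.03. Within it, Slc2a4, the insulin-regulated glucose transporter GLUT4, had 0.55, 0.65, 0.48 and 0.48 in mice W to Z on clone 5822 and 0.05, 0.14, 0.02 and 0.17 on clone 6835, above 0 in every mouse on both clones. Eno3, the muscle enolase, had 0.38, 0.41, 0.23 and 0.66.

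The sarcomere class lay around 0, with 20 of 34 genes above 0 and a median of 0.01. Medians were -0.02, -0.03, -0.18 and 0.14 in mice W to Z. In all mice 4 of 32 genes lay above and 4 of 32 below 0 (12.5% each), against 9.94% and 6.93% of all genes. The main structural genes had means near 0, but most of them changed sign with the dye. Cy5 first, Myl3 had 0.49 and -0.65, Myl2 0.32 and -0.27, Tnni3 0.31 and -0.16 and Mybpc3 0.26 and -0.18. Actc1 had 0.04 and -0.04, and Tnnt2 had 0.01 and 0.28. The SDs given next are of mouse means, in which both dyes are averaged. Cardiac actin (Actc1) had 0.00 ± 0.26, ventricular myosin light chains Myl2 and Myl3 had 0.02 ± 0.23 and -0.08 ± 0.16, cardiac troponins Tnnt2 and Tnni3 had 0.15 ± 0.17 and 0.08 ± 0.14, and cardiac myosin-binding protein Mybpc3 had 0.04 ± 0.05 (SD, n = 4 mice each). Alpha-actinin of the Z disc (Actn2) had 0.21, 0.01, 0.15 and 0.22 in mice W to Z. Tnnc1 and Trim54, with all mice below 0, and Tmod1, a cap of the thin filament with 0.67 in mouse X and -3.12 in mouse Y, were the members farthest from 0.

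Troponin genes of skeletal muscle were measured on the same arrays. Fast troponin C (Tnnc2) had -1.51, -1.09, -0.21 and -0.62 in mice W to Z, and fast troponin T (Tnnt3) had -0.44, -1.32, -0.48 and -0.96 on clone 19348 and -1.34, -0.14 and -1.603 in mice W, X and Z on clone 2415. Fast troponin I (Tnni2) had 0.27, 0.24, -0.18 and 0.40, and parvalbumin (Pvalb) had 0.07, 0.15, -0.32 and 0.59. The 15 tested skeletal muscle genes had 8 above 0 and a median of 0.07.

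Calcium handling had 21 of 27 genes above 0 with a median of 0.10, and 6 of 26 genes above 0 in all mice (23.1%, against 9.94% of all genes) and 0 below. The median was -0.0040 with the mutant in Cy5 and 0.11 with the mutant in Cy3. Phospholamban (Pln), the inhibitor of the sarcoplasmic calcium pump, had 0.32, 0.83, 0.04 and 0.60 in mice W to Z, and calsequestrin (Casq2), the calcium store protein, had 0.06, 0.18, 0.09 and 0.28. The pump itself (Atp2a2, SERCA2) had 0.30, 0.21, 0.05 and 0.13 on clone 5640 and 0.30, 0.37, 0.47 and 0.73 on clone 6142, but 0.58, -0.88, -1.11 and 0.91 on clone 14379. The sodium-calcium exchanger (Slc8a1) had 0.00 ± 0.09 (SD, n = 4 mice), and the L-type calcium channel (Cacna1c) had 0.12 ± 0.66 (SD, n = 4 mice) on clone 9634. For Pln the arrays with the mutant in Cy5 had a mean of -0.02 and those with the mutant in Cy3 0.92. Casq2 had 0.43 and -0.12, and Slc8a1 had 0.40 and -0.40, Cy5 first.

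Ion channels and conduction genes had 10 of 22 above 0 with a median of -0.02. Irx3, a transcription factor of the conduction system, had -0.39, -0.43, -0.34 and -0.34 in mice W to Z, but 0.42 with the mutant in Cy5 and -1.17 with the mutant in Cy3. Connexin 43 (Gja1) had 0.91, 0.97, -0.88 and 0.14. The stress and hypertrophy genes had 20 of 32 above 0 with a median of 0.05. Within these, Jun, an immediate early transcription factor, had -0.65, -1.19, -0.81 and -0.08 on clone 3328 and -1.52, -0.84, -0.38 and -0.18 on clone 5767, below 0 in every mouse, and 1.15, -1.26 and -0.32 in mice W, Y and Z on clone 20336. Connective tissue growth factor (Ccn2) had -0.24, -0.9995, -0.32 and -0.34. Its mean was 0.06 with the mutant in Cy5 and -1.01 with the mutant in Cy3. Averaged over its clones, Jun had -0.59 over the mouse means. Its means by dye were -0.07 with the mutant in Cy5 and -2.36 with the mutant in Cy3. These also take in arrays whose partner had no value, which the mouse means leave out, so their gap is not a paired dye difference.

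**Figure D3:**
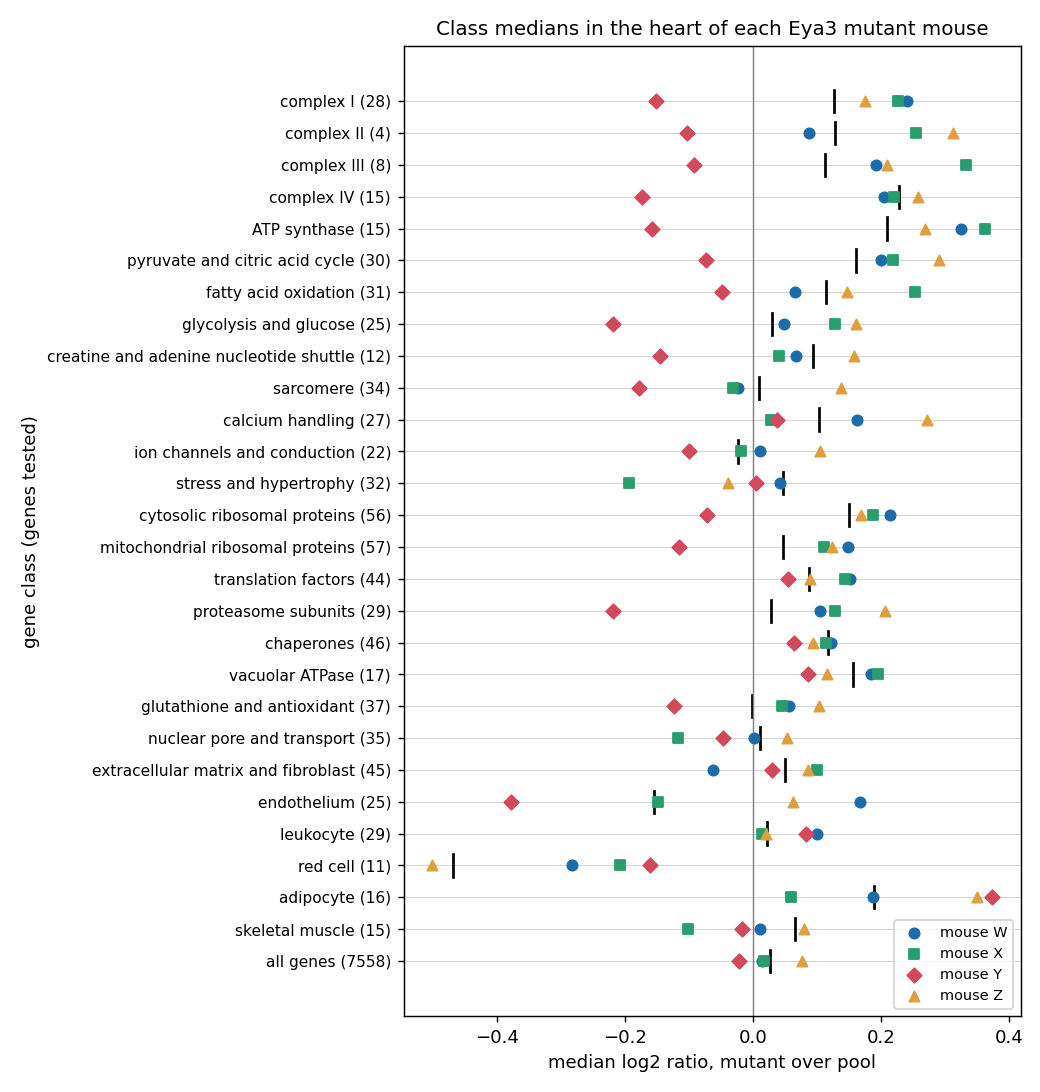
Median log2 ratio (mutant over pool, x axis) of gene classes in each mouse, with the number of genes tested in brackets. Black bars are the medians of the gene means over mice. Mouse Y lies below 0 in all 5 complexes, and all mice lie below 0 for the red cell genes.

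Cytosolic ribosomal proteins had 45 of 56 genes above 0 with a median of 0.15. In all mice 13 of 53 lay above 0 (24.5%) and 0 below, against 9.94% and 6.93% of all genes. The median was 0.22 with the mutant in Cy5 and 0.01 with the mutant in Cy3. Rpl10a had 0.10, 0.86, 0.69 and 0.31 in mice W to Z. Translation factors had 29 of 44 above 0 (median 0.09). In all mice 10 of 40 lay above 0 (25%) and 0 below, against the same 9.94% and 6.93% of all genes. Chaperones had 30 of 46 above 0 (median 0.12), with medians of 0.06 to 0.12 in the 4 mice. Heat shock genes induced by stress had ratios of 0.19 ± 0.30 for Hspa1b, -0.01 ± 0.05 for Hspb1 and 0.05 ± 0.15 and -0.03 ± 0.27 for the clones of Cryab, the small heat shock protein of heart muscle (SD, n = 4 mice each). By dye, Hspa1b had 0.47 and -0.08 and Hspb1 had 0.29 and -0.32, Cy5 first. Mouse Y was the lowest of the 4 mice in 22 of 36 lists with at least 3 genes, and mouse Z was the highest in 15.

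Glutathione and antioxidant genes, Gstm2 included, had 18 of 37 above 0 and a median of 0.00. Prdx1, a peroxiredoxin, had 0.51, 0.81, 0.28 and 0.51 in mice W to Z, and catalase (Cat) had 0.63, 0.30, 0.22 and 0.08. Gpx1 had 0.00 ± 0.16, Gpx4 had 0.12 ± 0.25, and the 2 clones of Sod1 had 0.19 ± 0.34 and 0.17 ± 0.10 (SD, n = 4 mice each). By dye, Gpx1 had 0.70 and -0.71 and Gpx4 had 0.15 and 0.10, Cy5 first.

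Red cell genes had the lowest median of the cell type classes described here, with 9 of 11 below 0 and a median of -0.47. Below 0 in all mice were 5 of 9 genes with 4 mice (55.6%) against 6.93% of all genes. The adult alpha globin Hba-a1 had 6 clones, and Alas2, the first enzyme of haem synthesis in red cells, had -0.71, -0.21, -0.66 and -0.42 in mice W to Z. Klf1, an erythroid transcription factor, had -0.36, -1.41, -0.10 and -4.12. Slc4a1, the anion exchanger of the red cell membrane, had -0.01 ± 0.81 (SD, n = 4 mice). Without mouse Z the class median was -0.10. In whole hearts, fewer cells of a type and less RNA per cell cannot be told apart.

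Endothelial genes had 18 of 25 below 0 with a median of -0.15, but their medians were 0.17, -0.15, -0.38 and 0.06 in mice W to Z. In all mice 1 of 22 genes lay below 0 (4.55%, against 6.93% of all genes). VE-cadherin (Cdh5) had 0.32, 0.25, -0.26 and 0.34 on clone 15648 and 0.24, 0.42, -0.26 and 0.52 on clone 20279. CD31 (Pecam1) had -2.10, -1.34 and 0.04 in mice W, Y and Z on clone 5136 and 0.12, -0.29, 0.26 and -0.18 on clone 20671. Without mouse Y the endothelial median was -0.03.

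Leukocyte genes were evenly split, with 15 of 29 above 0 and a median of 0.02. Lyz2, the lysozyme of macrophages and neutrophils, had 0.37, 0.44, 0.66 and 0.95 in mice W to Z, and CD45 (Ptprc) had 0.13, 0.31, 1.37 and 0.31 on clone 11459 and 0.81, -0.29, 1.56 and 0.84 on clone 5661. The T cell marker Cd3e had -0.41, -0.04 and -0.29 in mice X, Y and Z, and Cd74, the invariant chain of antigen-presenting cells, had means of -0.17 and 0.22 on its clones. The lowest means of the list included S100a8 (-0.47), Fcgr1 (-0.45) and Fcer1g (-0.41), named after their values were seen. In each of them 1 mouse lay far below the others. S100a8 had -1.17, -0.37 and 0.14 in mice X, Y and Z, and Fcgr1 had -1.20, -0.12 and -0.02 in mice W, Y and Z. Fcer1g had -0.01, 0.32, -2.045 and 0.09 in mice W to Z. Adipocyte genes had 11 of 16 above 0 with a median of 0.19. Of the defining markers, perilipin (Plin1) had -0.67, -0.10, -1.18 and 0.07 in mice W to Z and adiponectin (Adipoq) had -2.09, 0.63 and 0.96 in mice W, Y and Z. Scd1, a fatty acid desaturase, had 2.22, -0.21, 2.48 and 1.09, Thrsp had 1.01, 2.77, 0.37 and 0.15, and Fabp4 had 0.22, 0.40, -0.35 and 0.37. Extracellular matrix and fibroblast genes had 26 of 45 above 0 with a median of 0.05. Decorin (Dcn) had 0.49, 0.50, -0.04 and 0.54, and Timp4, a metalloproteinase inhibitor of the heart, had -0.60, -0.60, -0.93 and -0.35 on clone 19951. Averaged over its 2 tested clones, however, Timp4 had -0.67, 0.43, -1.48 and -2.05, so its other clone did not repeat these values.

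Agreement between clones of one gene was weak. The 1903 genes with at least 2 tested clones made 3176 pairs, of which 1696 (53.4%) had means of the same sign, where the overall share of positive means would give 50.3%. Pearson's r across pairs was 0.00 and Spearman's rho was 0.05, given as a description since pairs share arrays and clones. The median difference between the clones of a pair was 0.31 on the log2 scale. By mouse the share ran from 51.4% to 53.0%, and it was 52.1% with the mutant in Cy5 and 50.7% with the mutant in Cy3.

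The share was higher among clones with a small spread between mice and not among clones with large ratios. Where both clones had an SD under 0.5, 58.0% of 1088 pairs shared a sign, and with an SD under 0.25 it was 61.0% of 195 pairs. Where both means were beyond 0.5 in size it was 52.2% of 113 pairs, and beyond 1 it was 3 of 10 pairs. Pairs of respiratory chain, ATP synthase and citric acid cycle genes shared a sign in 23 of 33 (Pearson's r across pairs -0.0064). Pairs of cytosolic ribosomal proteins did so in 20 of 33, of chaperones in 21 of 33 and of sarcomere genes in 8 of 18. The mean was positive in 83 of 96 of these respiratory and citric acid cycle genes and in 45 of 56 cytosolic ribosomal proteins. Where most means are positive, clones share a sign more often without agreeing better. The share expected within each class was not calculated, so these counts do not show better agreement in a class.

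**Figure D4:**
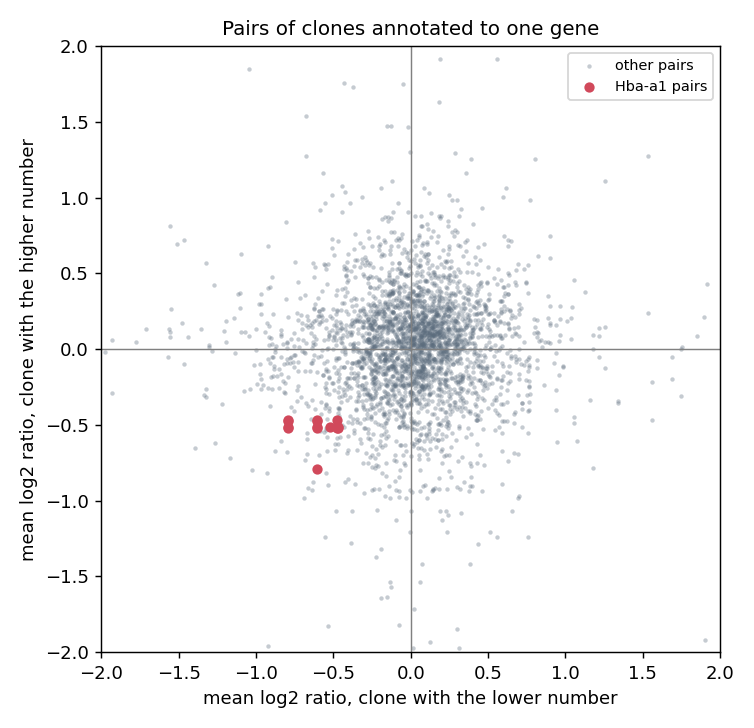
Mean log2 ratios (mutant over pool) of pairs of clones annotated to one gene, the clone with the lower number on the x axis and the one with the higher number on the y axis. Of 3176 pairs, 3093 lie within the axes, which end at 2 and -2. The cloud is round, with 53.4% of all pairs in the quadrants of equal sign, and the Hba-a1 pairs lie together below 0.

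Of the 17 genes with 5 or more tested clones, Hba-a1 was the one with all clones below 0 in every mouse. Its 6 clones had means from -0.79 to -0.47, a range of 0.32. Clone 15359 had -0.84, -0.51, -0.66 and -0.43 in mice W to Z, and clone 19752 had -0.96, -0.22, -0.30 and -0.58. Near-identical globin genes may share the signal of these clones. The 5 clones of Tcf4, a basic helix-loop-helix transcription factor, had means from 0.17 to 0.90, all above 0, and those of Mgat5, a glycosyltransferase of the Golgi, from 0.05 to 0.22, although single mice lay on both sides of 0 for most of these clones. In the other 14 genes the clones lay on both sides of 0. Mylk, which encodes myosin light chain kinase, ran from -1.07 to 0.19, and Nipbl, the cohesin loader, from -3.55 to 0.19.

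**Figure D5:**
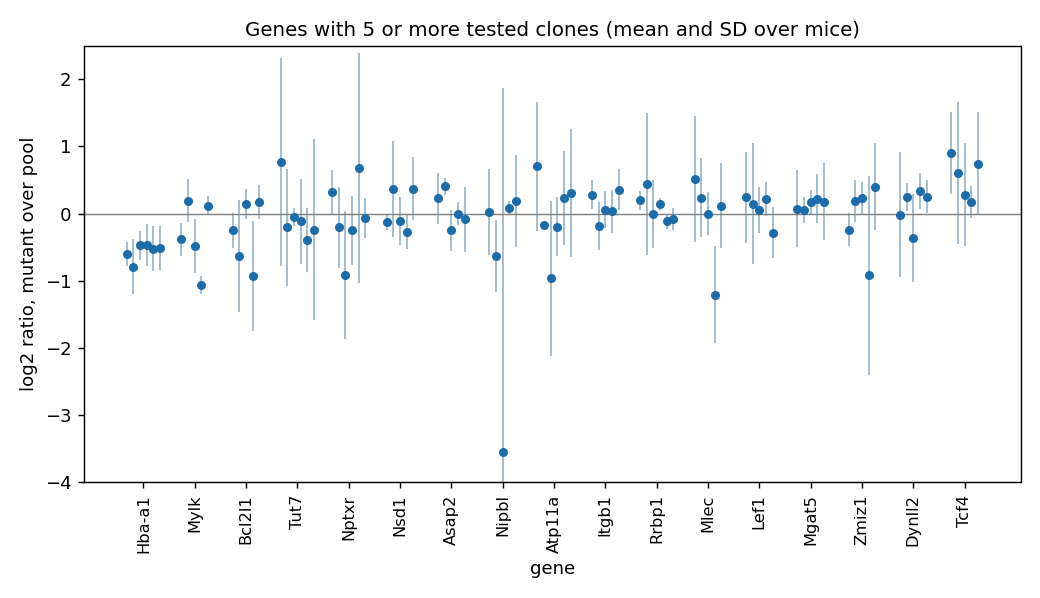
Mean log2 ratio (mutant over pool, y axis) of each tested clone of the 17 genes with 5 or more tested clones, ordered by the median of their clones. Points are clones, bars are the SD over 3 or 4 mice and are cut at the axis ends. The 6 Hba-a1 clones lie between -0.79 and -0.47, and the Nipbl clones spread down to -3.55.

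All clones lay on one side of 0 in every mouse for 20 of the 942 genes whose clones all had 4 mice, 17 above and 3 below. Those with the largest means were Wdr45, Leprotl1, Hba-a1, Clec11a and Fxr1. Fxr1, an RNA-binding protein abundant in striated muscle, had 0.23, 0.34, 0.55 and 0.91 in mice W to Z on clone 8359 and 0.23, 0.52, 0.18 and 0.53 on clone 14768. Leprotl1, a membrane protein, had 0.46, 0.64, 1.52 and 1.24 on clone 2511 and 0.28, 0.05, 0.52 and 0.30 on clone 17249. Wdr45, an autophagy protein, had 0.10, 0.43, 0.52 and 0.08 on clone 924 and 0.49, 2.04, 2.52 and 0.14 on clone 5086. Clec11a, a growth factor of bone and blood progenitors, had -0.38, -0.06, -0.13 and -0.37 on clone 3497 and -1.91, -0.37, -0.34 and -0.52 on clone 19318. Slc2a4, described above, was also among the 20.

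The clones farthest apart belonged to Slc9a9, Nfatc1, Klf3, Sqstm1 and Tbl2, and in each of them the value of 1 mouse set most of the distance. Slc9a9 clone 6719 had -9.65 in mouse W, Nfatc1 clone 2175 had 8.55 in mouse W, and Tbl2 clone 6838 had 7.98 in mouse Y. Sqstm1 clone 340 had 9.26 in mouse X, while its clones 17529 and 18298 had 0.01 ± 0.26 and -0.05 ± 0.11 (SD, n = 4 mice each). Klf3 clone 6517 had -8.30 in mouse W, and clone 6239 had 0.50, 1.78, 1.58 and 0.57 in mice W to Z.

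Differences between the heart and the other organs of the same mice were fitted over the clones measured in both. Limma called 0 of 13948 clones between heart and brain (0%), with 1579 at an unadjusted p under 0.05, and 0 of 13395 between heart and muscle (0%), with 678. For Tnnc1 the heart differed by -1.36 from brain (adjusted p = 0.394 from limma) and by -0.25 from muscle (adjusted p = 0.921 from limma). For Trim54 clone 3088 the difference was -1.38 to brain (adjusted p = 0.394 from limma) and -0.65 to muscle (adjusted p = 0.881 from limma).

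Eya proteins act with sine oculis homeobox factors, so the promoters of tested genes were searched for TCAGGTT, the core of the MEF3 site that these factors bind in muscle promoters, on both strands of the 250 bases before and 50 bases after each gene start in RefSeq (GRCm38.p6). The letters occurred in 4.07% of all 32851 windows and in 256 of 6113 tested genes with a window (4.19%). The 256 genes had a median log2 ratio of -0.01 with 48.4% above 0, and the 5857 others had 0.03 with 54.4%. In the calcium handling list 1 of 19 genes held the motif, Calr, which had a log2 ratio of 0.32. In the sarcomere list 1 of 30 genes held it, Actn2, and no other gene of that list had one. The site of Actn2 is shown.
Actn2, chr13:12340812-12340878, minus strand, motif in capitals as its reverse complement: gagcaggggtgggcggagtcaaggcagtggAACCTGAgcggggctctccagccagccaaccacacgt
The windows of Tnnc1, Ankrd1, Nup155, Calm3 and Gstm2 did not hold these letters, which says nothing about sites elsewhere. This search was chosen after results were known.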

How the data were processed

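RNA of the hearts of 4 Eya3-/- mice was compared with a wild-type pool on 8 glass cDNA arrays. GenePix was used for scanning and MIDAS for normalization, by a method the authors do not name. The file deposited by the authors holds log2 ratios for 20794 clones, and spots without a value are empty. Signal over background is unknown, so the number of arrays limits the precision. Values beyond 10 lay above 0 on arrays with the mutant in Cy5 and below 0 on the others, so the authors had already turned both dyes one way, and the direction, mutant over pool, is likely. Values were used as deposited.

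Each mouse was the mean of its 2 arrays, as n = 4. Means were compared with 0 by limma 3.58.1 in R 4.3.3 (intercept, eBayes) with Benjamini-Hochberg adjustment over all tested clones. The call at an adjusted p under 0.10 follows the false positive rate that the study allowed. Only the spread between mutants enters the p-values. The platform annotation gave 1 symbol for 12771 clones and none for 8023, and all 12771 identifiers matched RefSeq (GRCm38.p6). The fit was also run on simulated data in which 200 clones were shifted by a fixed amount. Without a shift, or with shifts of 1 log2 unit, it called 0 of 16241 clones. Shifts of 2 units were found in 67.5% of the shifted clones, and those of 4 units in 88%. The clones called were 146 and 202, which include some that were not shifted. These rates hold for 200 clones shifted at once, and a lone changed clone has to pass a stricter limit. Gstm2, at -2.28, was not called in the main fit. The count of 0 clones called in the heart therefore does not exclude shifts of 1 unit, or larger shifts in few clones.

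Classes were 37 lists. Genes named are those the study names for heart, core members of a list and its 3 largest means among genes with 4 mice, the 15 lowest p-values, genes with 5 or more clones, and the 5 genes with the farthest and the 5 with the most one-sided clones. Members and lists were chosen with earlier results of these data known. Genes beside Eya3, clones of one sign on 8 arrays and the motif were added later. Organs are paired by mouse number in the labels, and deviations of a mouse from the organ mean had r = -0.01 to 0.02 across clones between heart and another organ. Alternatives were centring and scaling, missing-value rules, values beyond 10 as missing, single arrays with and without a random block, single dyes, robust eBayes, averaged clones, SAM rewritten with 16 sign flips, and leaving out each mouse. Figures were drawn with matplotlib 3.10.9.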

Additional observations from a re-analysis of the deposited data

Results flagged for a closer look

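Among 59 sets of 4 mouse values (36 gene list medians, the respiratory chain as a whole and the single clones with 4 mice that the alternatives follow), 6 had a mouse far from the other 3 by Dixon's criterion, where chance gives about 1 in 20. In 5 of them this was mouse Y, in lists that share genes or arrays. Mouse Y had a median of -0.15 for the respiratory chain and ATP synthase, where the others ran from 0.24 to 0.29. It had -0.15 for complex I (others 0.18 to 0.24) and -0.17 for complex IV (others 0.20 to 0.26). It also had -0.072 for cytosolic ribosomal proteins (others 0.17 to 0.21) and -0.12 for mitochondrial ribosomal proteins (others 0.11 to 0.15). Ppm1f clone 9344 had 0.63 in mouse Z, and 1.01 to 1.08 in the others. The part of missing values, which were most frequent on the arrays of mouse Y, was not tested.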

How the results depend on the processing

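The count of 0 clones called over all clones stayed 0 after centring, after centring with scaling, with values from at least 1 array in 3 mice, with values beyond 10 missing, on single dyes, with robust eBayes and without any one mouse (0 to 0). It was 1, Gstm2 each time, with clones measured on all 8 arrays, with 8 arrays as independent samples, with the mouse as a random block, with clones of one symbol averaged and with SAM on the mouse means. Paired by mouse as a replicate block, the differences between organs gave 0 calls as without it, and 0 to 0 without any one mouse. Clone pairs of equal sign made up 55.1% with clones on all 8 arrays, 52.1% with the mutant in Cy5, 50.7% with the mutant in Cy3 and 52.3% to 53.5% without any one mouse. Reversed against the mean of both dyes were Ankrd1 clone 1707 (0.23) and Calm3 clone 15844 (-0.083) with the mutant in Cy5, and Ankrd1 clone 2433 (0.23) with the mutant in Cy3, and the cause was not tested. Over all lists and alternatives, 333 medians moved by less than the SD over mice and 37 by more. Single dyes moved 13 and 12 of 37 lists and changed the sign of 10 and 11 (Cy5 first). The respiratory chain median was 0.20 with the mutant in Cy5, 0.09 in Cy3 and 0.23 without mouse Y. The number of arrays, missing spots and the low agreement of dye-swapped arrays limit single clones.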
